A study of Mus musculus with 6 samples.

Results

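Pax3 and Pax7, Six2, Six4 and Six5, and Eya1, Eya2, Eya3 and Eya4 are transcriptional regulators that act early in the making of skeletal muscle. They were followed here as every probe set whose platform annotation gives exactly 1 of these 9 gene symbols, which found 23 of 45101 probe sets and all 9 of 18194 named genes. Transcript levels had been measured on 6 Affymetrix GeneChip Mouse Genome arrays, where a probe set is a group of short oligonucleotides that reads 1 transcript. In 3 samples, primary mouse myoblasts had been infected with a lentivirus carrying a Tet-pLKO-puro vector with a short hairpin RNA (shRNA) that targets the long non-coding RNA LncMyoD. The 3 other samples were control primary myoblasts, and the labels do not say which vector these received. All 6 samples carry an age of 21 days. Media for growth and for differentiation are both described in the labels, but not which of them these cells were in. The labels also do not say whether the hairpin was induced. Sample titles call the replicates biological, but do not say whether they came from separate cultures or animals. The p-values therefore set a difference only against the spread of these arrays within their groups, and what that spread covers is not known.

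Pax3 and Pax7 are paired-box factors that specify muscle precursors. Pax3 acts in the embryo, including the cells that migrate into the limb, and Pax7 marks satellite cells, the stem cells of adult muscle. Six-family proteins are homeodomain factors that bind MEF3 sites in muscle promoters, among them that of myogenin. Eya proteins do not bind DNA themselves. They join Six-family proteins as coactivators and carry a tyrosine phosphatase domain, for which histone H2AX is a substrate. As muscle precursors differentiate, Pax7 is normally switched off while Myod1 and myogenin take over.

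Promoter sequence was at hand for 6 of the 9 genes, in 8 windows of 250 bases before an annotated start (RefSeq, build GRCm38.p6). Both strands were searched for the MEF3 site TCAGGTTTC, the E box CANNTG bound by Myod1 and its relatives, the paired-domain core GTCACGC and a paired homeodomain site, TAAT and ATTA with any 3 bases between them. None of these patterns contains another. The share of all 32851 promoter windows of that length that hold a match was 0.387% for MEF3, 66.2% for the E box, 1.78% for the paired-domain core and 0.463% for the homeodomain site. Among the members, a MEF3 match was found before 1 of 2 annotated starts of Six4, beginning 99 bases before that start and on the opposite strand. It lies downstream of the gene's other annotated start. A homeodomain match was found 45 bases before the start of Six2. The windows of Eya3 and of 1 of 2 starts of Eya4 held 1 E box each. Pax7 and Six5 held no match. The following lines show the Six4 and Six2 matches, because each pattern is among the rarer ones and can be bound by proteins of the member families. They also show the windows of Pax7, which was higher in shRNA arrays, and Eya3, which was lower. Capitals mark the matched letters, and each sequence runs 5′ to 3′ on the strand of its gene.
Six4, chr12:73113326-73113354, minus strand: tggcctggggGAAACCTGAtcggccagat
Six2, chr17:85688281-85688309, minus strand: ccgcttagaaTAATATTATTAaaaaagct
Pax7, chr4:139832969-139833218, minus strand: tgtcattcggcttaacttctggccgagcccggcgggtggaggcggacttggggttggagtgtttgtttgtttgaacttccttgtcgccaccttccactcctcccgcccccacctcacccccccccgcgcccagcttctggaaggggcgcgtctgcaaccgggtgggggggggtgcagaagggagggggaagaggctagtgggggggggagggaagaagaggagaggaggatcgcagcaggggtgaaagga
Eya3, chr4:132638796-132639045, plus strand: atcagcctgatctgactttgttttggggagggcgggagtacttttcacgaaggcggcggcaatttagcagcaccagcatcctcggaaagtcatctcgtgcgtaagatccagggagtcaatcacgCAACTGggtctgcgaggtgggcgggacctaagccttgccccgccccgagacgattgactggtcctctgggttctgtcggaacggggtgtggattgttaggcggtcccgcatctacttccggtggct
A match is a run of letters and not a measured binding site. In the same windows GC made up 65.2% of bases for Pax7 and 58.4% for Eya3, against a median of 52.4% over all windows.

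LncMyoD itself could not be matched to a probe set and is not analysed here, so the groups rest on the labels. Each array gave 1 normalized log2 signal per probe set, between 4.48 and 14.64. Arrays of the same group correlated at r = 0.996 to 0.997 across tested probe sets, and arrays of different groups at 0.976 to 0.981. No array stood apart from its group. The log2 ratio of 3' to 5' signal, a sign of RNA integrity, was 0.551 ± 0.0175 in shRNA arrays and 0.507 ± 0.0179 in control arrays for actin (SD, n = 3), and 0.225 ± 0.0376 in shRNA arrays and 0.140 ± 0.0454 in control arrays for GAPDH. Both differences reached the lower limit of a two-sided exact permutation test over 20 assignments, p = 0.1. Their part in the results was not tested.

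Of the 23 member probe sets, 17 passed a filter that left out the 40% of probe sets with the lowest mean signal (a mean below 6.50), and these cover 8 of the 9 genes. In limma's test of shRNA against control, with a Benjamini-Hochberg adjusted p under 0.05 over all 27022 tested probe sets as the threshold, 9 of the 17 were higher in shRNA arrays, 4 were lower and 4 did not pass. Over all tested probe sets 53.9% passed, 30.4% higher and 23.5% lower, so a passed threshold was common on these arrays. With each array centred on the median of its tested probe sets, 6674 of these were higher and 8166 lower, in place of 8214 and 6352. Of the member probe sets, 9 were then higher and 6 lower. Of the 17, 2 had a control mean under the filter, 1421727_at of Eya1 and 1427436_at of Six2, and were tested only through their higher shRNA signal; of the 15 others, 8 were higher, 4 lower and 3 did not pass. The groups did not overlap in 14 of the 17, and in 12 of the 15 with both group means above the filter. Over all tested probe sets 59.5% did not overlap. The median difference of all 17, the 2 with a control mean under the filter included, was 0.46 on the log2 scale. It was 0.021 over all tested probe sets. By gene, with each represented by its brightest probe set, Pax3, Pax7, Six4 and Eya1 were higher, Eya3 was lower, and Six2, Six5 and Eya4 did not pass. Over all 12408 tested genes, 58.5% passed, 35.7% higher and 22.8% lower. Probe sets of a gene share its transcripts, and 2 of the Six4 probe sets were designed from the same sequence record, so probe sets are not independent observations.

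**Figure D1:**
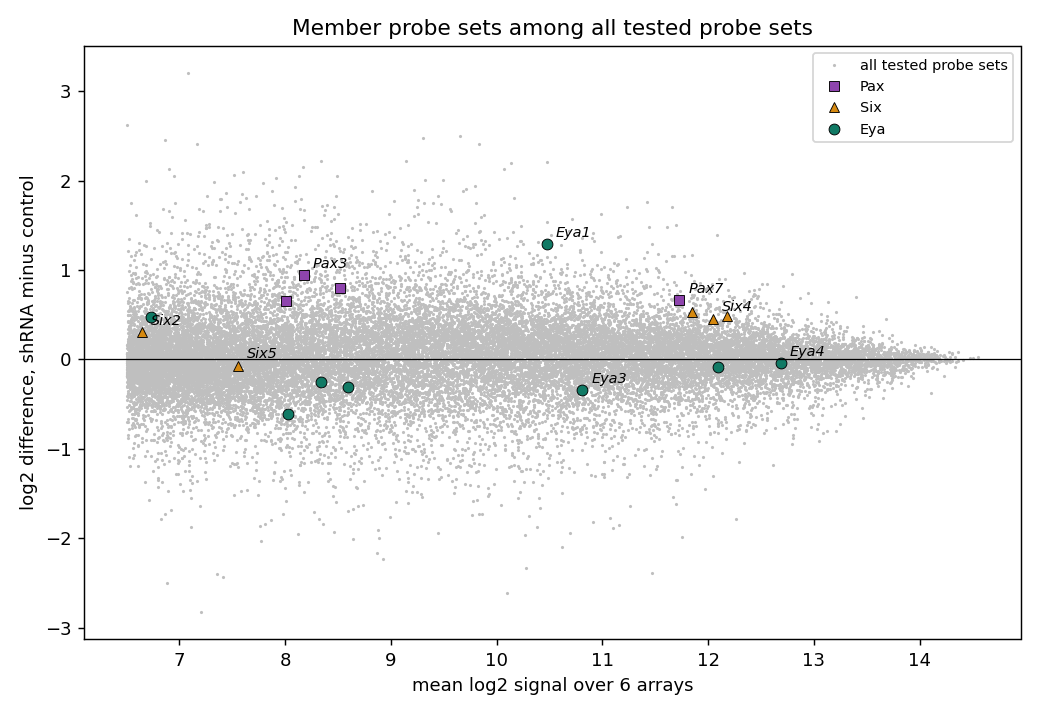
Each grey point is 1 of the 27022 tested probe sets, placed by its mean log2 signal over 6 arrays and its log2 difference, shRNA minus control. The larger symbols are the 17 tested member probe sets, with squares for Pax, triangles for Six-family genes and circles for Eya, and the brightest one of each gene is named. Eya1 stands highest among the members at 1.29, while Eya3 and Eya4 lie below 0.

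Pax7 was higher in shRNA cells on both of its probe sets. On the brighter, 1444596_at, the shRNA arrays read 11.98, 12.03 and 12.17 log2 units, against 11.44, 11.36 and 11.39 in the control arrays. Every shRNA array lay above every control array. The means were 12.06 ± 0.097 in shRNA arrays and 11.40 ± 0.042 in control arrays, a difference of 0.66 (SE 0.051, limma adjusted p = 2.68e-07). The dimmer probe set, 1452510_at, read 8.92, 8.90 and 8.94 in shRNA arrays and 8.23, 8.06 and 8.09 in control arrays. Its difference was 0.79 (SE 0.081, limma adjusted p = 3.39e-06), or 1.73-fold, and the groups again did not overlap. The difference between the probe sets' changes was 0.13, with overlapping arrays (two-sided exact permutation p = 0.2).

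Pax3 was also higher in shRNA cells. Its probe set 1420389_at read 8.67, 8.69 and 8.59 in shRNA arrays, against 7.63, 7.65 and 7.84 in control arrays. The groups were apart by more than their spread, with a difference of 0.94 (SE 0.092, limma adjusted p = 2.17e-06) or 1.92-fold. Probe set 1441743_at read 8.40, 8.26 and 8.35 in shRNA arrays and 7.69, 7.53 and 7.82 in control arrays, a difference of 0.66 (SE 0.099, limma adjusted p = 0.000108). The third, 1430335_a_at, had a mean of 6.47, just under the filter. It read 6.56, 6.77 and 6.73 in shRNA arrays and 6.37, 6.25 and 6.17 in control arrays, also without overlap. When all 45037 probe sets other than controls were tested, where 33.6% passed, its difference of 0.42 passed the threshold (limma adjusted p = 0.0163). It passed as well with the lowest 20% left out (limma adjusted p = 0.0116). Its control mean of 6.26 lay under the filter, so it adds no support to the brighter probe sets. The change of Pax3 exceeded that of Pax7 by 0.28 on their brightest probe sets, but the arrays overlapped (two-sided exact permutation p = 0.2).

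**Figure D2:**
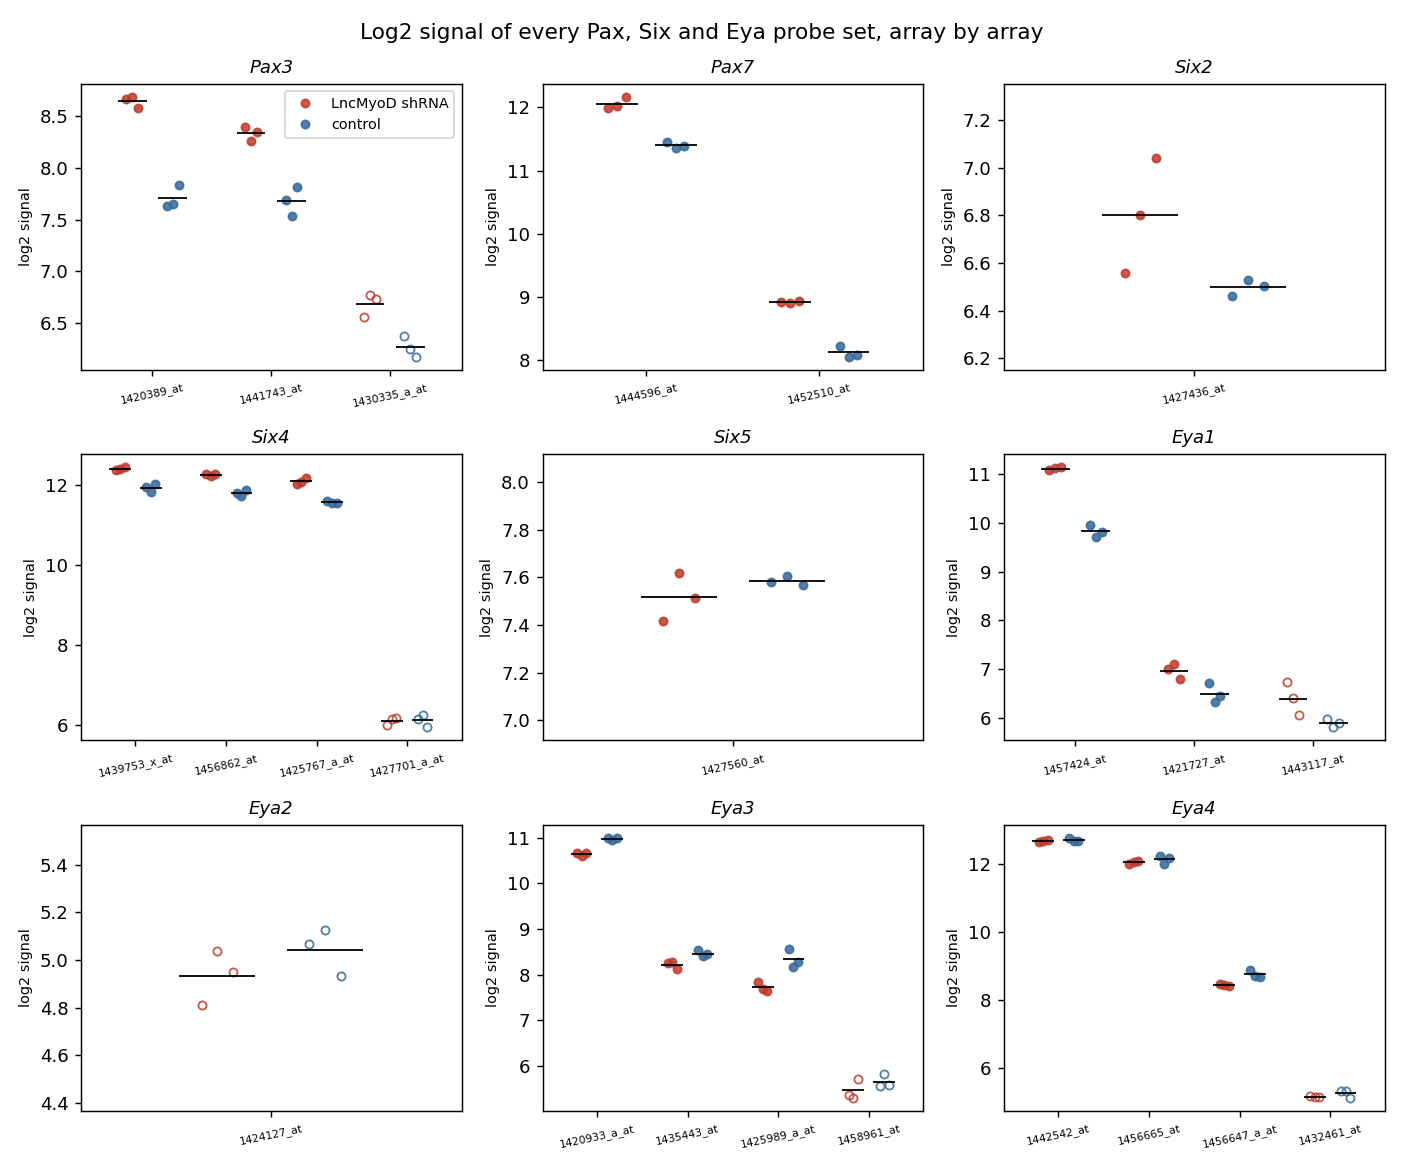
Log2 signal on each of 3 LncMyoD shRNA arrays (red) and 3 control arrays (blue) for all 23 member probe sets, 1 panel per gene, with bars at the group means. Open circles mark the 6 probe sets that did not pass the filter. The red points lie above the blue for both Pax7 probe sets and all 3 Pax3 probe sets, and below them for the 3 filled Eya3 probe sets. Scales differ between panels.

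Among the Six-family genes, Six4 was higher in shRNA cells and the others did not pass. Six4 binds MEF3 sites and acts in muscle precursors of the embryo. On 1456862_at, which stands for the gene, the shRNA arrays read 12.28, 12.25 and 12.29, against 11.82, 11.73 and 11.89 in control arrays. The difference was 0.46 (SE 0.045, limma adjusted p = 2.49e-06), or 1.37-fold, without overlap. Probe set 1439753_x_at, from the same sequence record, gave 0.48 (SE 0.050), and 1425767_a_at gave 0.53 (SE 0.046). These 3 agree within 0.08 log2 units. Another, 1427701_a_at, had a mean of 6.11 and lay under the filter, with 6.01, 6.16 and 6.16 in shRNA arrays and 6.15, 6.25 and 5.95 in control arrays.

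Six5, whose gene lies beside Dmpk, the gene of myotonic dystrophy, had 1 probe set, 1427560_at. It read 7.42, 7.62 and 7.51 in shRNA arrays and 7.58, 7.61 and 7.57 in control arrays. The arrays overlapped, and the difference of -0.069 did not pass (limma adjusted p = 0.585), with a 95% interval of -0.28 to 0.15. Within arrays, the change of Six4 exceeded that of Six5 by 0.53, and the gap between them was 4.76 ± 0.12 in shRNA arrays and 4.23 ± 0.098 in control arrays. These gaps did not overlap (two-sided exact permutation p = 0.1, the smallest possible), which the separate signals of Six4 and Six5 had already fixed. Six2, best known from kidney progenitors, read 6.56, 6.80 and 7.04 in shRNA arrays and 6.46, 6.53 and 6.50 in control arrays on 1427436_at, where the mean of all arrays was above the filter and that of the control arrays was not. All shRNA arrays were above the control arrays, but they spread widely, and the difference of 0.30 (SE 0.14) did not pass (limma adjusted p = 0.0776). Without shRNA replicate 1 it was 0.42 and passed (limma adjusted p = 0.0173), and over all alternatives its adjusted p ran from 0.0173 to 0.320.

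**Figure D3:**
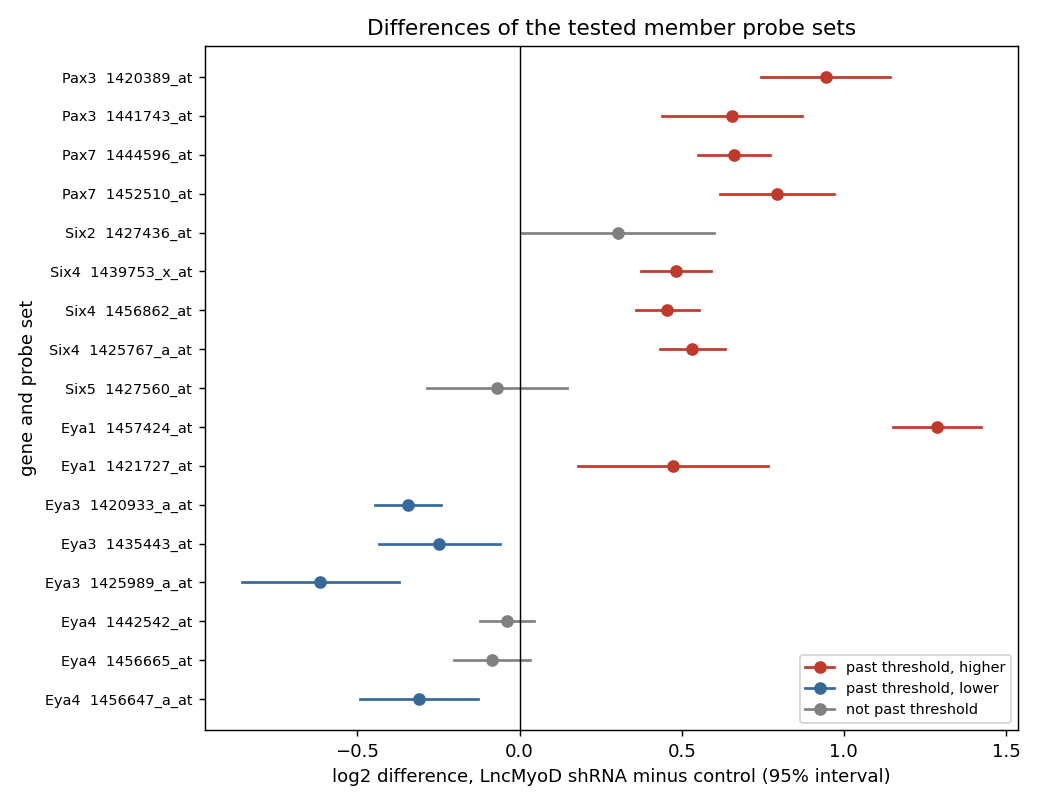
Log2 difference, shRNA minus control, for the 17 tested member probe sets, with limma's 95% interval as a line. Red marks those past the threshold and higher, blue those past it and lower, grey those not past it. Pax3, Pax7, Six4 and Eya1 lie right of 0, the intervals of Six5 and of the 2 brighter Eya4 probe sets cross 0, and all 3 Eya3 probe sets lie left of it.

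The Eya genes moved in different directions. Eya1, a partner of Six-family proteins in early muscle precursors, had the largest increase of any member on its brightest probe set. Its probe set 1457424_at read 11.08, 11.12 and 11.15 in shRNA arrays, against 9.96, 9.71 and 9.81 in control arrays. The shRNA arrays lay within 0.1 log2 units of each other and more than 1 above every control array. The difference was 1.29 (SE 0.063, limma adjusted p = 5.92e-09), or 2.44-fold, and 1.32% of all tested probe sets changed by at least as much in either direction. The other 2 probe sets of Eya1 were dim. Probe set 1421727_at read 7.00, 7.10 and 6.80 in shRNA arrays and 6.71, 6.33 and 6.45 in control arrays, a difference of 0.47 (SE 0.14, limma adjusted p = 0.00998). It was tested only because its shRNA signal was higher, since its control mean lay under the filter. The last, 1443117_at, lay under the filter, with 6.73, 6.40 and 6.05 in shRNA arrays and 5.97, 5.81 and 5.89 in control arrays. Its groups did not overlap either, and it passed when every probe set was tested (0.50, limma adjusted p = 0.0240) and with the lowest 20% left out (limma adjusted p = 0.0187). Neither dim probe set had a control mean above the filter, so they add no support to the bright one. Averaged over tested probe sets, Eya1 differed by 0.88 (SE 0.082) and Pax3 by 0.80 (SE 0.080).

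Eya3, a widely expressed member of the family, was lower in shRNA cells. Its brightest probe set, 1420933_a_at, read 10.66, 10.59 and 10.68 in shRNA arrays and 10.99, 10.96 and 11.00 in control arrays. The groups were apart, with a difference of -0.34 (SE 0.047, limma adjusted p = 4.55e-05), so that controls stood 1.27-fold higher. Probe set 1425989_a_at read 7.83, 7.68 and 7.64 in shRNA arrays and 8.56, 8.17 and 8.27 in control arrays, a difference of -0.61 (SE 0.11, limma adjusted p = 0.000468). Probe set 1435443_at differed by -0.25 (SE 0.086, limma adjusted p = 0.0270). That last call was lost without control replicate 1 (-0.21, limma adjusted p = 0.0623) or shRNA replicate 3 (-0.20, 0.116), and its adjusted p ran from 0.00576 to 0.116 over all alternatives. A further probe set, 1458961_at, lay under the filter and its arrays overlapped.

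Eya4 gave different results on different probe sets. On the brightest, 1442542_at, the shRNA arrays read 12.65, 12.66 and 12.69, against 12.77, 12.68 and 12.67 in control arrays. The groups overlapped, with a difference of -0.039 (SE 0.039, limma adjusted p = 0.426) and a 95% interval of -0.12 to 0.045. The next, 1456665_at, differed by -0.086 (SE 0.054, limma adjusted p = 0.199). The third, 1456647_a_at, read 8.47, 8.44 and 8.40 in shRNA arrays and 8.88, 8.69 and 8.67 in control arrays, and was lower by its difference of -0.31 (SE 0.084, limma adjusted p = 0.00711). Within arrays it changed by -0.27 relative to the brightest, without overlap (two-sided exact permutation p = 0.1), which the separate signals had already fixed. The median size of the difference among all tested probe sets was 0.133 for the 2707 with a mean between 12 and 13, and 0.271 for the 3734 between 8 and 9. Centring each array on the median of its tested probe sets moved every difference by -0.064. Both bright probe sets of Eya4 then also passed, at -0.10 (limma adjusted p = 0.0194) and -0.15 (0.0304). The second of them passed as well without control replicate 2 (-0.15, limma adjusted p = 0.0232). Over all alternatives the adjusted p ran from 0.0194 to 0.897 for the first and from 0.0232 to 0.559 for the second. The last, 1432461_at, was under the filter with a mean of 5.20. Eya2 had a single probe set, 1424127_at, also under the filter. It read 4.81, 5.04 and 4.95 in shRNA arrays and 5.07, 5.12 and 4.93 in control arrays, with overlap.

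The gap between Eya genes within an array does not depend on how arrays were scaled by a constant. The gap of Eya1 over Eya3 was 0.48 ± 0.053 log2 units in shRNA arrays and -1.15 ± 0.11 in control arrays, a shift of 1.63. Eya1 shifted against Eya4 by 1.33, and Eya3 against Eya4 by -0.30. Groups did not overlap in any of these 3 gaps, and each had a two-sided exact permutation p = 0.1, the smallest possible. The signals given above had already fixed this. Eya1 and Eya3 were apart in opposite directions, each by more than the whole range of Eya4. The gaps were also chosen after the values were seen, so they add no support to the separate differences. Signals of different probe sets cannot be compared as levels, so only the shift of a gap between the groups carries information. The gaps restate that the signal of Eya1 moved up against both other Eya genes that could be tested.

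**Figure D4:**
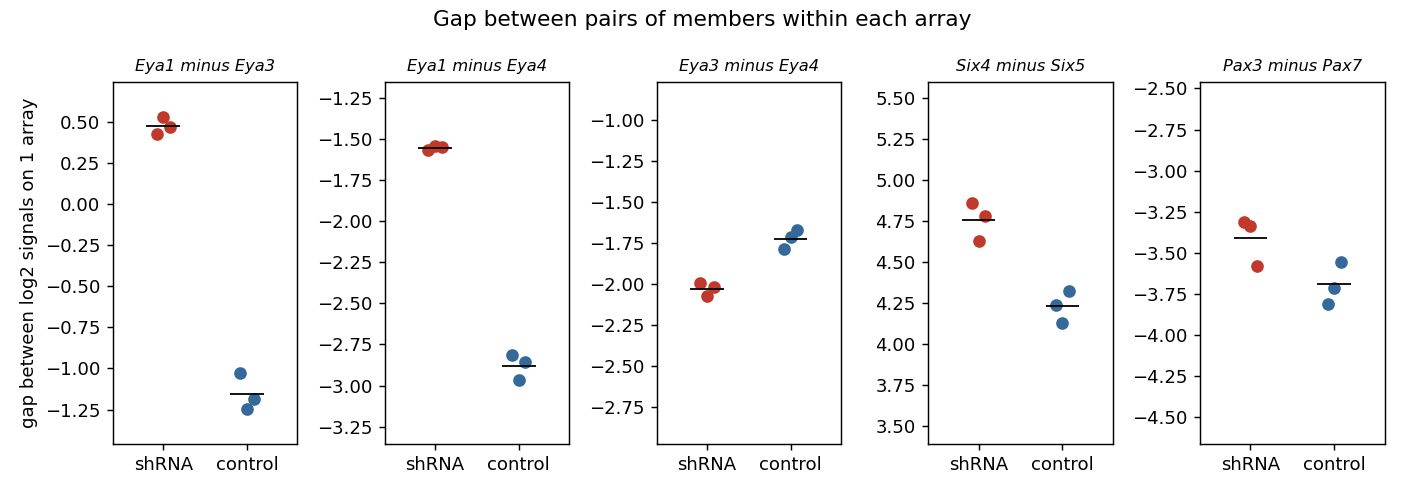
Gap between the log2 signals of 2 members on the same array, using the brightest probe set of each gene that does not end in _x_at, for 3 shRNA arrays (red) and 3 control arrays (blue), with bars at the means. All panels span the same number of log2 units. The groups are apart for the 3 Eya pairs and for Six4 minus Six5, and overlap for Pax3 minus Pax7.

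Cofactors of the Six-family and Eya proteins changed in both directions. Dach proteins join Six-family proteins as corepressors, and Tle proteins are Groucho-type corepressors. Of 11 tested genes in the list, 4 were higher, 4 lower and 3 did not pass. The median difference was 0.054, against 0.046 over all tested genes, of which 35.7% were higher and 22.8% lower. Dach1 was higher, at 9.30 ± 0.054 in shRNA arrays and 7.97 ± 0.081 in control arrays, a difference of 1.34 (SE 0.080, limma adjusted p = 2.95e-08). This is 2.53-fold and close in size to Eya1, though the other tested probe set of Dach1 did not pass. Tle1 was higher by 0.77 (SE 0.067), whereas Tle4 was lower (-0.57, SE 0.043). The acetyltransferase gene Crebbp was lower (-0.22, SE 0.034), but not when its probe sets were averaged (-0.089, limma adjusted p = 0.109).

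The H2AX list holds the histone on which Eya phosphatases act and proteins that modify or bind it. Of its 4 tested genes 3 were higher and 1 was lower, beside 35.7% and 22.8% of all tested genes. The median was 0.38. H2ax was higher by 0.51 (SE 0.090) and Mdc1, which binds the phosphorylated histone at DNA breaks, by 0.77 (SE 0.064). Baz1b, the kinase of the tyrosine, was higher by 0.26 (SE 0.037), with 2 of its 3 other probe sets not past the threshold. The adaptor gene Apbb1 was lower (-0.26, SE 0.077). The call of Apbb1 was lost without control replicate 2 (-0.23, limma adjusted p = 0.0507).

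Cofactors of Pax3 and Pax7 showed small differences. Of 11 tested genes 4 were higher, 3 lower and 4 did not pass, and the median was 0.020. Among all tested genes 35.7% were higher and 22.8% lower. Paxip1, which brings a histone methyltransferase complex to Pax targets, was higher by 0.34 (SE 0.065), on all 4 of its tested probe sets. Ash2l (-0.32, SE 0.063) and Rbbp5 (-0.34, SE 0.070), core subunits of such complexes, were lower. Paxbp1 was higher on the probe set that stands for it (0.16, SE 0.063, limma adjusted p = 0.049), but its other tested probe set was lower. Hira, a histone chaperone reported to bind Pax proteins, was higher by 0.18 on its brightest probe set, but 2 others were lower and their mean was lower (-0.18, limma adjusted p = 0.0153). Its call was also lost with arrays centred, quantile normalized or scaled on hybridization controls (limma adjusted p = 0.0715 to 0.0972) and without control replicate 2 or 3 or shRNA replicate 1 (0.0517 to 0.112). The 4 higher calls became 1 without control replicate 3 or shRNA replicate 1, and 2 without control replicate 2 or shRNA replicate 2.

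Genes reported as targets of Pax3 or Pax7 were mostly higher. Of 11 tested, 8 were higher, 2 lower and 1 did not pass, and the median was 0.27, beside 35.7% higher and a median of 0.046 over all tested genes. This list, like the others, was chosen with earlier results of these data known, so the shares only describe it. Pdgfra, a growth factor receptor, was higher by 0.89 (SE 0.12) and Dmrt2, a factor of the embryonic somite, by 0.87 (SE 0.11). Spry1, a feedback inhibitor of growth factor signalling in satellite cells, was higher by 0.41 (SE 0.053) and the membrane protein gene Itm2a by 0.27 (SE 0.037). Those that were lower were Met (-0.31, SE 0.055), the receptor used by migrating precursors, and Lbx1 (-0.25, SE 0.039), a homeobox gene of the same cells. Pdgfra is also a marker of fibroblasts, in which list it was the single gene that was higher.

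Genes reported as targets of the Six-family and Eya proteins moved both ways. Of 14 tested, 4 were higher, 4 lower and 6 did not pass (median difference 0.0050). All tested genes together were 35.7% higher and 22.8% lower. The cyclin gene Ccnd1 was higher by 0.87 (SE 0.057) and the myogenic factor Myf6 by 0.70 (SE 0.12). The muscle creatine kinase Ckm was lower, at 9.11 ± 0.016 in shRNA arrays and 10.53 ± 0.077 in control arrays (-1.41, SE 0.061, limma adjusted p = 2.19e-09). Lbx1, given above, is also in this list, as is Met. Myog, the best known MEF3-bearing gene, was lower by its difference of -0.13 (SE 0.039, limma adjusted p = 0.0115), which did not pass when the variance trend was left out (adjusted p = 0.0799).

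The satellite cell markers, other than the members, held 26 genes, of which 19 could be tested. Of these 9 were higher, 3 lower and 7 did not pass, and the median was 0.16. The shares of all tested genes were 35.7% higher and 22.8% lower, with a median of 0.046. The proteoglycan gene Sdc4 was higher by 0.95 (SE 0.046), the receptor gene Fgfr1 by 0.78 (SE 0.051) and Cdh15, M-cadherin, by 0.40 (SE 0.037). Sox8, a factor of the Sox family found in satellite cells, was lower, at 8.03 ± 0.071 in shRNA arrays and 9.25 ± 0.14 in control arrays (-1.22, SE 0.090, limma adjusted p = 1.76e-07). Among those named after their values were seen, Msx1 was higher by 1.08 (SE 0.11) on 1 of 2 probe sets, Cxcr4 by 0.79 (SE 0.077) and the Notch target Hey1 by 0.58 (SE 0.081). The remaining lower ones, Sdc3 (-0.37, SE 0.063) and Ncam1 (-0.11, SE 0.035), were also named after their values were seen. The other tested probe set of Sdc3 did not pass. Cd34 and Calcr, markers of quiescent satellite cells, lay under the filter.

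The next list held myogenic factors, Mef2 factors, Tcf3, Tcf4 and Tcf12. Of its 10 tested genes 4 were higher, 3 lower and 3 did not pass (median 0.036). For all tested genes the shares were 35.7% higher and 22.8% lower. Myod1 did not pass (0.023, SE 0.044, limma adjusted p = 0.688), nor did its other tested probe set. Myf5, a target of Pax3 and Pax7, was higher by 0.62 (SE 0.11) and Myf6 by 0.70. The other higher calls were Tcf3 (0.48, SE 0.098) and Tcf12 (0.10, SE 0.041), each with 2 other probe sets not past the threshold. Mef2c (-0.26, SE 0.038) and Mef2d (-0.22, SE 0.042) were lower, although 1 of the other probe sets of Mef2d did not pass. Of 9 relatives of the members known mainly from other tissues, 8 had a probe set and 3 passed the filter. Pax9 was higher, at 7.57 ± 0.061 in shRNA arrays and 6.72 ± 0.20 in control arrays (0.85, SE 0.12, limma adjusted p = 6.60e-05), and Pax4 and Pax6 did not pass.

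**Figure D5:**
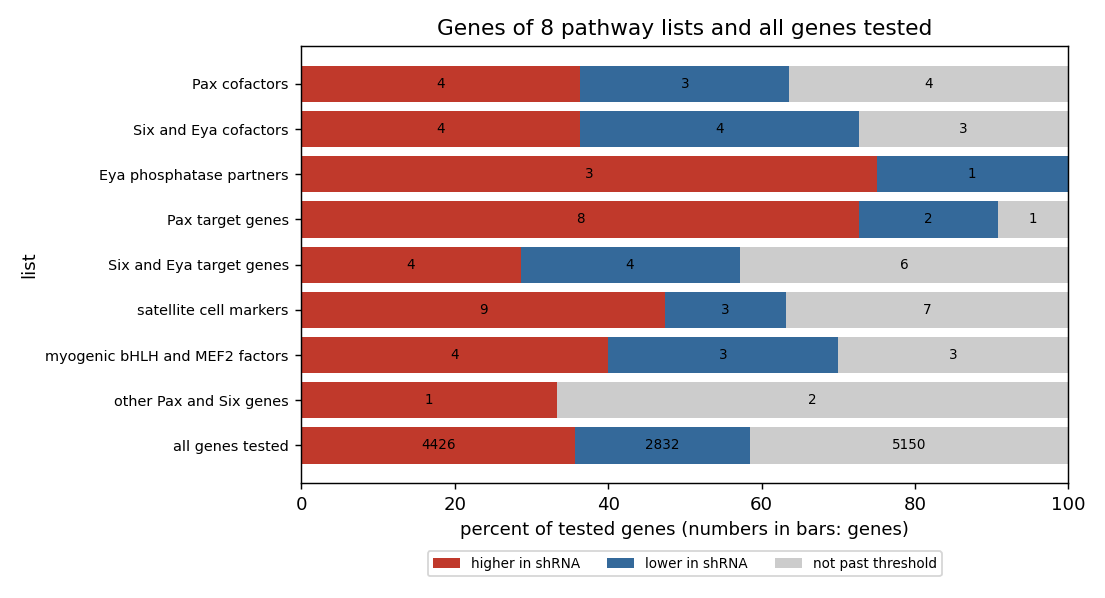
Share of tested genes that were higher in shRNA arrays (red), lower (blue) or not past the threshold (grey) in 8 lists of related genes and among all 12408 tested genes, with the number of genes in each bar. The Pax target list has 8 of 11 genes in red, against 4426 of 12408 genes over all. The lists were chosen with earlier results of these data known.

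Markers of other cells and states moved with some of these genes. Of 8 markers of differentiated muscle, 6 were lower, among them Tcap (-1.96, SE 0.057), Ckm, Myh1 (-0.36, SE 0.041) and Tnnc2 (-0.16, SE 0.032). Among all tested genes 22.8% were lower and 35.7% higher. The median difference of the 8 was -0.16, and Mylpf and Tnnt3 did not pass (0.018 and 0.019). The mean log2 signal of the 8 per array, in which Tcap and Ckm had the largest differences, ran from 12.60 to 12.63 in shRNA arrays and from 13.12 to 13.14 in control arrays. Of 6 tested markers of cycling cells, 4 were higher, among them Mcm2 (0.99, SE 0.060), Pcna (0.46, SE 0.040) and Cdk1 (0.58, SE 0.062), while Top2a was lower (-0.72, SE 0.090). Their mean ran from 9.40 to 9.43 in shRNA arrays and from 8.96 to 9.18 in control arrays. The part of both shifts in the differences of Pax7, Pax3, Six4 and Eya1 was not tested, and in these samples a change in the share of precursor cells and a change of RNA per cell cannot be told apart.

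Markers of other cell types were mostly low. Of 9 fibroblast markers with a probe set, Dcn, Lum, Dpt and Thy1 lay under the filter, while 1 of 5 tested was higher (Pdgfra) and 2 were lower, Col3a1 (-0.51, SE 0.067) and Col1a1 (-0.42, SE 0.15). The call of Col1a1 was lost without a variance trend (limma adjusted p = 0.0536), without any 1 control replicate (0.0543 to 0.0850) and without shRNA replicate 1, where its difference was -0.24 (0.125). The mean of the tested ones ran from 7.74 to 7.89 in shRNA arrays and from 7.76 to 7.89 in control arrays. Of 8 leukocyte markers, Ptprc, Adgre1 and Itgam lay under the filter, and 5 were tested. Cd14 (1.07, SE 0.14) and Cd68 (0.33, SE 0.12) were higher, but both had a control mean under the filter and were tested only through their higher shRNA signal. The call of Cd68 was lost with arrays centred (limma adjusted p = 0.0683), with hybridization control scaling (0.0520), without control replicate 2 (0.0916) or 3 (0.119) and without any 1 shRNA replicate (0.0606 to 0.0791). The mean of the 5 tested markers, these included, ran from 6.81 to 6.92 in shRNA arrays and from 6.57 to 6.73 in control arrays. Of 6 endothelial markers 5 lay under the filter, and all 4 adipocyte markers with a probe set did. Of 4 glia and neural crest markers with a probe set, Sox10 and Foxd3 lay under the filter. Erbb3 was lower (-0.82, SE 0.036), and S100b did not pass (-0.099, limma adjusted p = 0.508). Pax3 also marks neural crest, and the means of the 2 tested markers of that list were 9.62 to 9.66 in shRNA arrays and 10.05 to 10.19 in control arrays. The part of these cells in the results was not tested.

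The genes whose signals ran most like those of Eya1, Pax7 and Pax3 over the 6 arrays were looked up by Pearson's r, as a description. For Eya1 these were Sowahc, Dusp4, a phosphatase of MAP kinases, and the proteoglycan gene Sdc1 (r = 0.9995 for each), and 629 genes exceeded 0.99. For Pax7 they were B3galt1, Mkrn3 and Tgfbr1, a TGF-beta receptor (r of 0.9994 to 0.9993), with 266 genes above 0.99. For Pax3 they were Nemp1, Ddx20 and Prex1 (r of 0.9989 to 0.9984), with 123 above 0.99. Picked by their likeness to members that were higher, all 9 genes were also higher in shRNA arrays, by 0.51 (Tgfbr1) to 1.11 (Dusp4). Prex1 had a control mean of 6.16, under the filter, and was tested only through its higher shRNA signal. The 6 points fall into 2 groups, so every such r includes the difference between the groups.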

How the data were processed

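Total RNA of primary myoblasts was read on 6 Affymetrix mouse whole-genome arrays, with 3 LncMyoD shRNA and 3 control samples grouped by their titles. The values deposited by the authors are normalized log2 signals, 1 for each probe set on each array. Their scale was inferred from their range, and all arrays share a median of 7.23. PLIER and MAS5 are named, without role or version, in the processing notes of the submitters. How background was corrected is not given in the sources used here. Detection calls were not used, so a low signal cannot be told from background, and an array has no read depth: 3 arrays per group limit the precision. The number of value columns with no sample was 0.

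Gene symbols came from the platform annotation held by GEO: 34958 of 45101 had 1 gene symbol, 932 several and 9211 none here. The 64 Affymetrix controls and then the 40% lowest means (18015) were left out. The 27022 others were tested with limma 3.58.1 in R 4.3.3 (lmFit, eBayes with a mean-variance trend, no covariates), with Benjamini-Hochberg adjustment over all of them. A gene is represented by its tested probe set with the highest mean, those ending in _x_at only where no other was tested. An error after ± is an SD (n = 3), and SE stands for the standard error that limma gives a difference. The calculation was tested on simulated data.

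The members and the 15 lists (144 symbols, of which 10 had no probe set, 33 lay under the filter and 101 were tested) were chosen with earlier results of these data known. Named genes are the members, for each list the genes past the threshold with the smallest p, at most 4, and the 3 genes most correlated with each of the 3 members of smallest p. Met, Myog, Msx1, Cxcr4, Hey1, Sdc3, Ncam1, Tcf3, Tcf12 and Paxbp1 were chosen after their values were seen. So were genes named as lying under the filter or as not past the threshold, and the comparisons of gaps within arrays. Alternatives varied the filter, variance model, scaling, probe set rule, replicates and a block by replicate number. Deviations from group means correlated at -0.134, -0.0616 and 0.0307 between same-numbered arrays, so the numbers were not taken as pairs.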

Additional observations from a re-analysis of the deposited data

How the results depend on the processing

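Of the 17 tested member probe sets, 9 higher and 4 lower calls became 9 to 10 and 3 to 5 when single arrays were left out. For all tested probe sets these counts were 7137 to 8788 higher and 5505 to 6154 lower. Pax3, Pax7, Six4 and Eya1 passed as higher and Eya3 as lower, each on its brightest probe set, in every alternative that kept it. These genes also passed in the same directions when probe sets were averaged. With the replicate number as a block, 9 member probe sets were higher and 4 lower, and 7726 and 5920 of all; the block changed no call of a member probe set or of a member gene. With suffixed probe sets left out, among them the brightest of Eya3, 1 member probe set was lower in place of 4, since fewer were counted. Lower member genes were 2 in place of 1 with arrays centred and with probe sets averaged, the added one being Eya4 (averaged -0.14, limma adjusted p = 0.0170).

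Among the lists, higher Pax cofactors fell to 1 with arrays centred or scaled on hybridization controls, to 2 with quantile normalization or averaged probe sets, and ranged from 1 to 4 without single arrays. Lower satellite cell markers were 5 without a filter and with arrays centred, in place of 3. With the lowest 50% left out, 0 of the other Pax and Six-family genes were higher in limma's test, because Pax9 was no longer tested. Lower H2AX genes ranged from 0 to 1 without single arrays. Hira turned to -0.18 with averaged probe sets, where its dimmer ones count equally. The causes of the other changes were not tested. Low signals, as in Six2, Eya2, the dimmest probe set of Pax3 and the dim probe sets of Eya1 and Eya4, could not be told from background.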
